A study of Mus musculus with 4 samples.

Results

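The kinetochore, spindle checkpoint and mitotic genes were taken by name from a table of RNA in 4E-T and control immunoprecipitates. They comprised every centromere protein gene named Cenp and a letter from a to x, 20 of them in the table, and 39 further genes of mitosis. All 59 were among the 21738 listed genes, and all passed the minimum of 1 FPKM in at least 2 libraries that 12585 genes met. FPKM here are reads per kilobase of exon, divided by a size factor of the library. The recovered factors were 1.13 and 1.09 for the control libraries and 0.925 and 0.872 for the 4E-T libraries. They do not follow the totals of reads, so an FPKM is not a share of the library. FPKM can be compared between genes of different length. The cells were neurospheres, floating cultures of dividing neural precursors, grown for 7 days from the ventricular-subventricular zone (V-SVZ) of wild-type CD1 mice aged postnatal day 7 or 8. RNA came down either with an antibody against 4E-T (2 libraries) or with a control anti-IgG antibody (2 libraries), numbered Exp1 and Exp2 in both groups and called the 4E-T pair and the IgG pair here. All 4 libraries shared genotype, strain, age range and length of culture. The sources used here do not say whether animals were pooled or whether the numbered experiments were separate cultures, so the p-values rest on a spread between libraries that may be technical only. 4E-T binds the cap-binding protein eIF4E and holds mRNA untranslated in P-bodies. The comparison asks which transcripts had a higher scaled level in the RNA recovered with it.

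Mitosis distributes replicated chromosomes to the daughter cells. The kinetochore is built on centromeric chromatin: an inner layer, the constitutive centromere-associated network, carries an outer layer that grips microtubules. Unattached kinetochores feed the spindle checkpoint, which holds back Cdc20 and the anaphase-promoting complex until every chromosome is attached. Destruction of securin and cyclin B then frees separase, the sister chromatids part, and the cleavage furrow divides the cell. Many of these genes are transcribed together late in the cell cycle, and in the postnatal V-SVZ their mRNA marks cycling precursors.

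The cultures expressed the markers of neural precursors. All 11 such markers passed the minimum, with sums of 3720 and 3859 FPKM in the IgG pair and of 5799 and 4405 in the 4E-T pair. Most of each sum was Fabp7, which was not called (2591 and 2758 in the IgG pair against 3475 and 2386 in the 4E-T pair). Hes5 had 86.3 and 130 in the IgG pair against 741 and 778 in the 4E-T pair. Of the 11 markers 6, Hes5 among them, were called higher with 4E-T, where 34.3% of all tested genes were, and 5 were not called. The 9 neuron markers summed to between 67.8 and 79.9 FPKM, mostly from Map2, while Syt1, Stmn2, Rbfox3, Dcx and Slc17a6 were each under 1. The 5 astrocyte markers summed to 362 and 325 in the IgG pair and 833 and 661 in the 4E-T pair, most of it Aldh1l1. Of the other astrocyte markers Aqp4 was lower with 4E-T (-0.53 ± 0.13 on the log2 scale, limma adjusted p = 0.00177). The 5 endothelial and mural markers summed to at most 1.35, the 3 listed microglia and blood markers to at most 0.286 the 5 oligodendrocyte markers to at most 4.23 and the 3 listed ependymal markers to at most 11.6. The part of these differences in the results on mitotic genes was not tested. Fewer cells of a type and less RNA per cell cannot be told apart in such samples, and neither can more RNA bound by 4E-T and more of it in the precipitate for another reason.

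More mitotic transcripts rose than fell in the 4E-T libraries, with the largest increase in Cenpe and the largest decrease in Cenpb. Calls were made at a limma adjusted p under 0.05, which 49.5% of all tested genes reached. By it 29 of the 59 genes rose with 4E-T, 6 fell and 24 were not called. That is 49.2% higher and 10.2% lower, against 34.3% higher and 15.2% lower over all 12585 tested genes. The median log2 difference, 4E-T minus IgG of log2(FPKM + 1), was 0.34 for the mitotic genes and 0.16 for all tested genes. At least 2-fold increases were called for 10 mitotic genes, where 3.57% of all tested genes had one, and a 2-fold decrease for 1, Cenpb (1.91% of all tested genes). Both 4E-T libraries exceeded both IgG libraries for 39 mitotic genes (50.5% of all tested genes) and lay below them for 9 (25.2%). Summed over the set, the levels came to 2162 and 2066 FPKM in the IgG pair and to 3137 and 2863 in the 4E-T pair. The mitotic genes held 0.728% and 0.741% of the listed reads of the IgG pair, and 0.946% and 0.924% of those of the 4E-T pair. These shares do not depend on the size factors, and they rose less than the summed FPKM. A fit scaled to the total of reads was not run. Ccnb1, with 169.8 and 153 in the IgG pair against 190.0 and 219.9 in the 4E-T pair, had the highest mean level of the set with IgG, and Plk1 had it with 4E-T. Cenpu, with 2.59 and 2.37 in the IgG pair against 2.69 and 2.86 in the 4E-T pair, had the lowest mean level with IgG, and Cenpp had it with 4E-T. With median ratio scaling, which moved the median log2 difference of all tested genes to -0.00246, 24 mitotic genes rose and 8 fell, at a median of 0.15, so that 75.0% of the mitotic calls and 49.2% of all calls were increases, in place of 82.9% and 69.3%. The share of all calls that were increases was 52.8% with quantile normalisation, 53.2% with a correction for exon length and 57.7% with no filter on low values. Without IgG library 1, 20 mitotic genes were higher and 2 lower. Every mitotic gene had at least 349 reads in each library, of totals between 72769612 and 85828188.

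**Figure D1:**
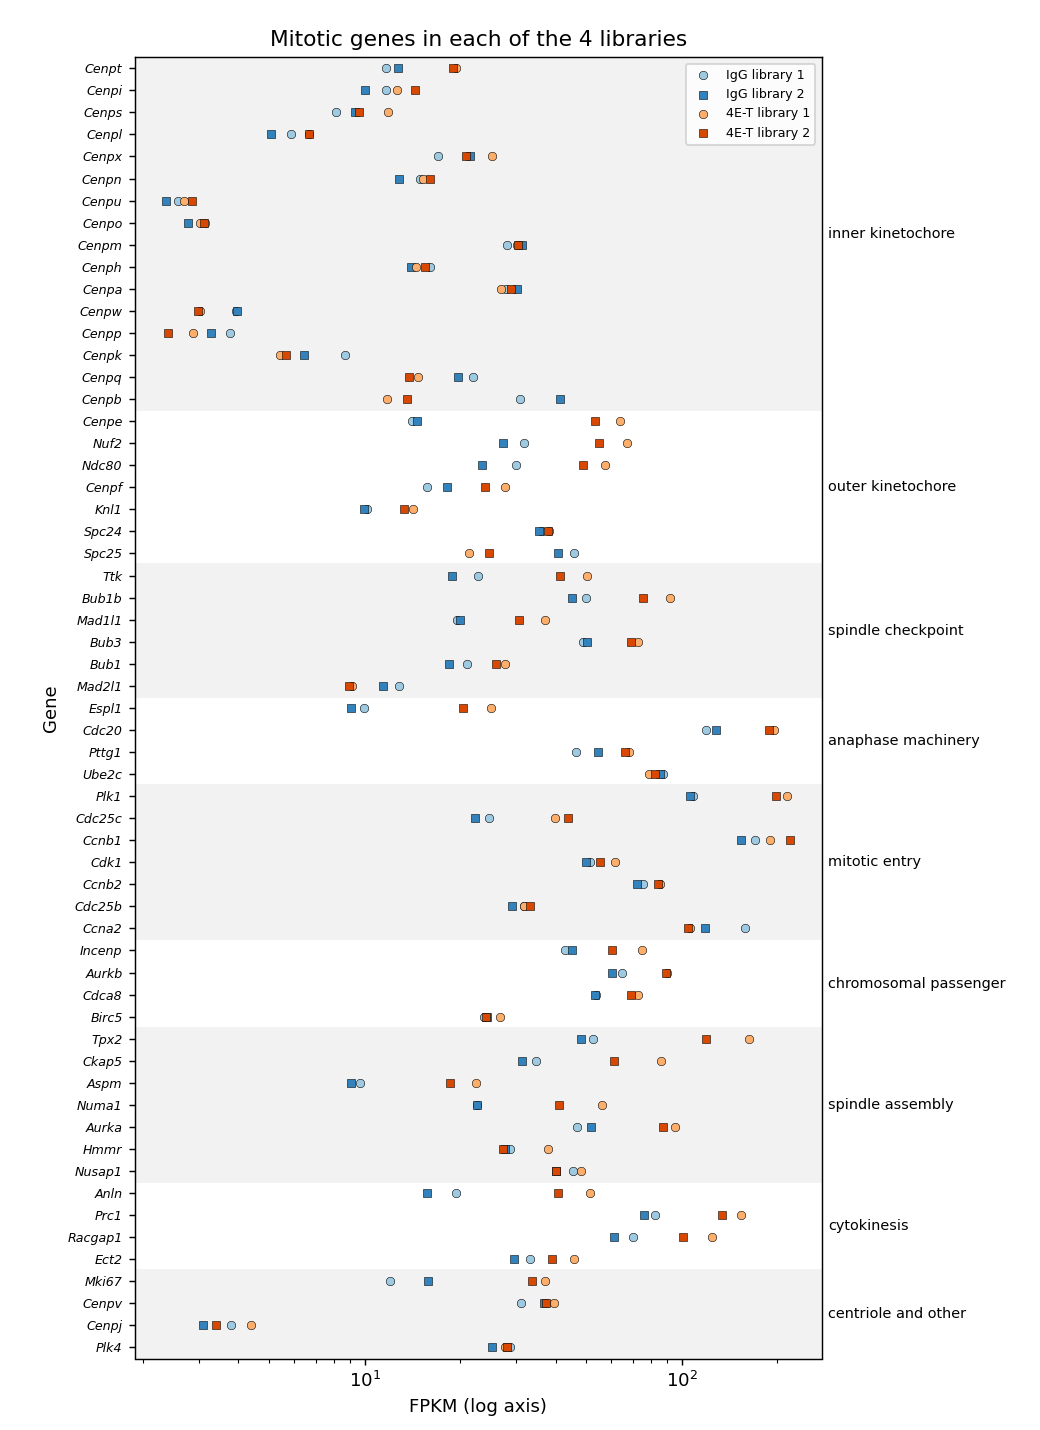
FPKM (log axis) of the 59 mitotic genes in the 4 libraries, grouped by role and ordered by difference within a role. Blue symbols are the IgG libraries and orange symbols the 4E-T libraries, with circles for library 1 and squares for library 2; orange lies to the right of blue for 39 genes and to the left for 9.

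The inner kinetochore genes had the smallest share of increases of any role, 6.25%, against 34.3% of all tested genes. Their share of decreases was 25%, against 15.2%. Of 16, only Cenpt was called higher, while Cenpb, Cenpq, Cenpk and Cenpp were called lower, and the median log2 difference was 0.04, which turned to -0.12 with median ratio scaling, -0.09 with quantile normalisation and -0.03 with the length correction. Cenpb, which encodes the protein that binds a short motif in centromeric satellite DNA (ENSMUSG00000068267.5; chromosome 2, 131177289 to 131180067 on GRCm38.p6, from RefSeq, as for all genes), was at 30.9 and 41.4 in the IgG pair against 11.8 and 13.6 in the 4E-T pair. Both IgG libraries lay far above both 4E-T libraries, a 2.69-fold decrease with 4E-T (log2 difference -1.43 ± 0.15, given with its SE here and throughout, 2 libraries each, limma adjusted p = 2.30e-08). Folds here and throughout are those of FPKM + 1, taken from the log2 difference, and are smaller than the folds of the FPKM themselves. Cenpa, the histone H3 variant that marks the centromere, had 28.0 and 30.1 in the IgG pair against 27.0 and 28.9 in the 4E-T pair, with overlapping groups and a difference of -0.05 ± 0.14. Cenpt, whose protein bridges centromeric DNA to the outer kinetochore, had 11.7 and 12.8 in the IgG pair against 19.4 and 19.0 in the 4E-T pair and rose by 0.61 ± 0.14 on the log2 scale (limma adjusted p = 0.000561). Its partner in a histone-fold complex, Cenpw, was not called, with FPKM of 3.94 and 3.94 in the IgG pair against 3.03 and 2.99 in the 4E-T pair and a difference of -0.30 ± 0.13 (limma adjusted p = 0.0536). Cenpw was called lower with median ratio scaling (limma adjusted p = 0.00759), quantile normalisation (0.0113), the length correction (0.00583), the replicate block (0.0431) and on recovered reads (0.0355). Cenps and Cenpx, the other members of that complex, had differences of 0.26 and 0.25 and were not called, although Cenpx was called higher with the length correction (limma adjusted p = 0.0479).

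Among the other subcomplexes of the inner layer, Cenpp and Cenpq fell while their partners Cenpo and Cenpu were not called. Cenpq had 21.99 and 19.7 in the IgG pair against 14.7 and 13.8 in the 4E-T pair, a log2 difference of -0.52 ± 0.14 (limma adjusted p = 0.00283), and Cenpp had the low FPKM of 3.77 and 3.27 in the IgG pair against 2.87 and 2.40 in the 4E-T pair and a difference of -0.31 ± 0.13 (limma adjusted p = 0.0497). Cenpo and Cenpu differed by 0.05 and 0.12. The Cenpp gene spans several other genes, among them Aspn, Ecm2 and Ippk, and reads were not separated by strand. Further mitotic genes overlap an annotated gene, among them Cenpt (Tsnaxip1), Cenpk (Ppwd1), Cenpq (Glyatl3) and Cenpx (Lrrc45) of this layer. Outside it, Aurka (Cstf1), Cdc20 (Elovl1), Prc1 (Rccd1), Ccna2 (Exosc9) and Ckap5 (F2) are examples. The part of such overlaps in the differences was not tested. In the subcomplex of Cenph, Cenpi, Cenpk and Cenpm, Cenpk alone was called, with FPKM of 8.69 and 6.43 in the IgG pair against 5.40 and 5.67 in the 4E-T pair and a difference of -0.38 ± 0.14 (limma adjusted p = 0.0276). Cenph (-0.0027), Cenpi (0.29) and Cenpm (0.03) were not called, nor were Cenpl (0.25) and Cenpn (0.16), which recognise the centromeric nucleosome together. Cenpi was called higher with the replicate block (limma adjusted p = 0.0495). Without IgG library 1, Cenpq (limma adjusted p = 0.0575), Cenpp (0.289) and Cenpk (0.375, difference -0.19) lost their calls. The Cenpp call was also lost on removal of IgG library 2 (0.0956) or of 4E-T library 2 (0.263), with a pseudocount of 0.1 (0.0527) and with no filter (0.0958), and the Cenpk call without 4E-T library 1 (0.102) and with no filter (0.09). The Cenpk difference was -0.57 without IgG library 2.

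Outer kinetochore transcripts spanned almost the whole range of the set. Of 7 genes 5 were higher, where 34.3% of all tested genes were, Spc25 was lower and Spc24 was not called. The median log2 difference was 0.58. Cenpe, the kinesin that carries chromosomes towards the spindle equator (ENSMUSG00000045328.11; chromosome 3, 135212563 to 135273540), was at 14.2 and 14.7 in the IgG pair against 63.7 and 53.1 in the 4E-T pair. This was a 3.84-fold increase (log2 difference 1.94 ± 0.14, limma adjusted p = 2.66e-11), which ranked 7 from the top among all tested genes. At the same difference, the limma adjusted p of Cenpe was 0.000439 with no filter and 1.96e-38 with the minimum of 5 FPKM. Cenpf, a large coiled-coil protein of the same outermost layer, rose less, at 15.7 and 18.1 in the IgG pair against 27.6 and 24.0 in the 4E-T pair, a difference of 0.58 ± 0.14 (limma adjusted p = 0.00122). The FPKM of Cenpf was 1.11 and 1.24 times that of Cenpe in the IgG libraries and 0.433 and 0.452 times in the 4E-T libraries. Knl1, the scaffold that docks the checkpoint proteins, had 10.1 and 9.92 in the IgG pair against 14.2 and 13.3 in the 4E-T pair and a difference of 0.42 ± 0.14 (limma adjusted p = 0.0121). Knl1 lost its call on removal of IgG library 1 (limma adjusted p = 0.0598), of IgG library 2 (0.08) or of 4E-T library 1 (0.083), with median ratio scaling (0.0851), quantile normalisation (0.0901) and the length correction (0.513, difference 0.086). The Cenpf call was lost on removal of IgG library 1 (0.0547) and with the length correction (0.213, difference 0.18), and its difference was 0.38 with quantile normalisation.

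The 4 subunits of the NDC80 complex, the rod that binds the microtubule, did not move together. In that complex Ndc80 and Nuf2 form the microtubule-binding end, and Spc24 and Spc25 the end anchored in the kinetochore. Ndc80 (ENSMUSG00000024056.9; chromosome 17, 71496100 to 71526857) was at 30.0 and 23.4 in the IgG pair against 57.3 and 48.7 in the 4E-T pair and rose by 0.97 ± 0.15 on the log2 scale (limma adjusted p = 6.79e-06). Nuf2 had 31.7 and 27.4 in the IgG pair against 67.4 and 54.97 in the 4E-T pair and rose by 1.02 ± 0.15 (limma adjusted p = 2.85e-06). Both 4E-T libraries were well above both IgG libraries for either gene. Spc24 was not called, with 35.9 and 35.5 in the IgG pair against 38.2 and 37.8 in the 4E-T pair and a difference of 0.09 ± 0.14. Spc25 (ENSMUSG00000005233.16; chromosome 2, 69193895 to 69206213) fell, at 45.7 and 40.6 in the IgG pair against 21.3 and 24.7 in the 4E-T pair, a 1.84-fold decrease (log2 difference -0.88 ± 0.14; limma adjusted p = 1.29e-05). The ratio of Ndc80 to Spc25 FPKM was 0.655 and 0.577 in the IgG libraries and 2.69 and 1.97 in the 4E-T libraries, while that of Ndc80 to Nuf2 was 0.944 and 0.856 in the IgG pair and 0.851 and 0.886 in the 4E-T pair. The first ratio did not overlap between antibodies and the second did, but with 2 libraries against 2 a two-sided exact permutation test of a ratio cannot go below p = 0.333, so neither was tested.

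**Figure D2:**
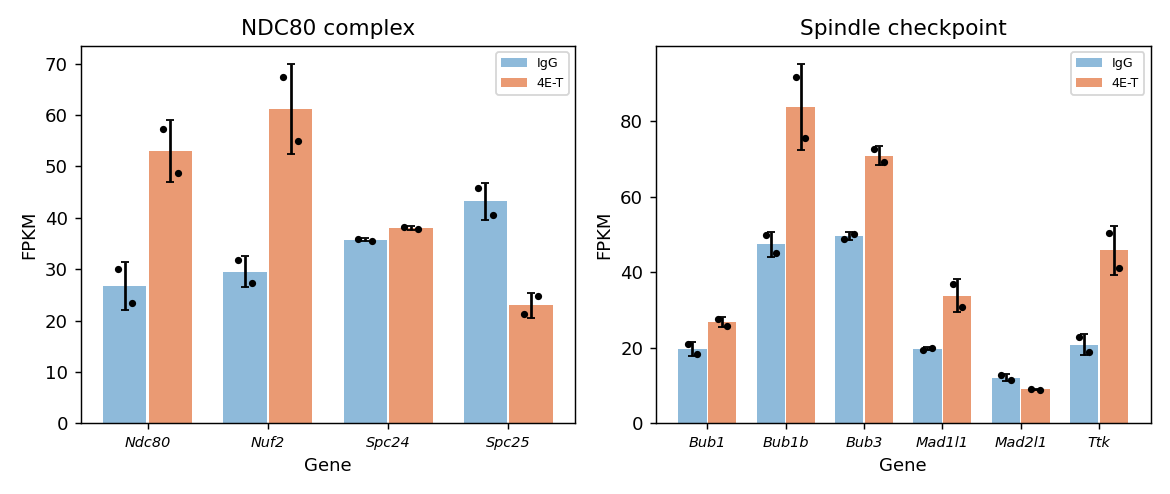
FPKM of the 4 NDC80 complex genes (left) and the 6 spindle checkpoint genes (right). Bars are the means of 2 libraries, error bars the SD and points the libraries; with 4E-T the bars of Ndc80 and Nuf2 are higher and that of Spc25 is lower, and on the right only the bar of Mad2l1 is lower.

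All 6 spindle checkpoint genes were called, 5 of them higher, where 49.5% of all tested genes were called and 34.3% were higher. Ttk, the kinase also called Mps1 that starts checkpoint signalling, was at 22.8 and 18.9 in the IgG pair against 50.4 and 41.3 in the 4E-T pair and rose 2.14-fold (log2 difference 1.10 ± 0.15; limma adjusted p = 8.95e-07). Bub1b, which encodes the Cdc20 inhibitor BubR1, had 49.8 and 45.1 in the IgG pair against 91.8 and 75.6 in the 4E-T pair and a difference of 0.80 ± 0.15 (limma adjusted p = 8.46e-05). For both genes the lowest 4E-T library exceeded the highest IgG library. Mad1l1, the receptor of Mad2 at kinetochores, had 19.5 and 20.0 in the IgG pair against 37.0 and 30.7 in the 4E-T pair and rose by 0.74 ± 0.14 (limma adjusted p = 9.94e-05). The kinase gene Bub1 (21.0 and 18.4 in the IgG pair against 27.7 and 25.9 in the 4E-T pair, difference 0.43 ± 0.14, limma adjusted p = 0.0122) and Bub3, the adaptor of both Bub proteins (difference 0.51 ± 0.15, limma adjusted p = 0.00483), rose less. Mad2l1, which encodes the Mad2 protein that is bound by Mad1, was the exception, with 12.8 and 11.4 in the IgG pair against 9.09 and 8.92 in the 4E-T pair and a difference of -0.39 ± 0.14 (limma adjusted p = 0.0188). The ratio of Mad1l1 to Mad2l1 FPKM was 1.52 and 1.75 in the IgG pair and 4.07 and 3.45 in the 4E-T pair. Mad2l1 lost its call on removal of IgG library 1 (limma adjusted p = 0.144), of 4E-T library 1 (0.0622) or of 4E-T library 2 (0.0725), and its difference was -0.71 with the length correction. Bub1 lost it on removal of IgG library 2 (0.153) or of 4E-T library 1 (0.072), with median ratio scaling (0.086) and quantile normalisation (0.0996), and its difference was 0.27 with the length correction. Bub3 lost it on removal of IgG library 1 (0.0767) or of IgG library 2 (0.0642), and its difference fell to 0.32, 0.29 and 0.33 with median ratio scaling, quantile normalisation and the length correction.

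Genes of the machinery that triggers anaphase were higher in 3 of 4 cases, where 34.3% of all tested genes were. Espl1, encoding separase, the protease that cleaves cohesin, was at 9.96 and 9.06 in the IgG pair against 25.0 and 20.4 in the 4E-T pair and rose 2.25-fold (log2 difference 1.17 ± 0.14; limma adjusted p = 2.06e-07). Cdc20, the activator of the anaphase-promoting complex, was at 119 and 128 in the IgG pair against 196 and 188 in the 4E-T pair and rose by 0.63 ± 0.16 (limma adjusted p = 0.00155). Pttg1, which encodes securin, the inhibitor of separase, had 46.5 and 54.5 in the IgG pair against 67.9 and 66.1 in the 4E-T pair and a difference of 0.40 ± 0.15 (limma adjusted p = 0.0239). Ube2c, the ubiquitin-conjugating enzyme of the complex, was not called, with 87.5 and 85.6 in the IgG pair against 78.9 and 82.3 in the 4E-T pair and a difference of -0.10 ± 0.15. Cdc20 lost its call on removal of IgG library 1 (limma adjusted p = 0.0723). Pttg1 lost it on removal of IgG library 1 (0.264), of IgG library 2 (0.0663) or of 4E-T library 1 (0.0681), with no filter (0.0584), under median ratio scaling (0.181) and quantile normalisation (0.22), so that Espl1 alone of these 4 genes was called in the absence of IgG library 1.

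The cyclins and Cdk1 that drive entry into mitosis were not called. Cdk1 was at 51.4 and 49.9 in the IgG pair against 61.7 and 55.1 in the 4E-T pair, with a log2 difference of 0.20 ± 0.15 (limma adjusted p = 0.261). Its partner cyclins Ccnb1 (0.34 ± 0.16, limma adjusted p = 0.0838) and Ccnb2 (0.19 ± 0.15) had small positive differences, and Cdk1 and Ccnb2 turned negative with quantile normalisation (-0.013 and -0.016). Ccna2, encoding cyclin A2 of S and G2 phase, was not called, with 158 and 118 in the IgG pair against 106 and 105 in the 4E-T pair and a difference of -0.37 ± 0.16 (limma adjusted p = 0.0613). Copies named Ccnb1-ps and Ccnb2-ps exist in the annotation, so reads of these cyclins may have been split. The sequences of the copies were not compared here. By contrast, 2 activators of the cyclin B kinase pathway rose. Plk1, the Polo kinase of mitotic entry and spindle formation, had 109 and 106 in the IgG pair against 215 and 197 in the 4E-T pair and a difference of 0.93 ± 0.16 (limma adjusted p = 2.15e-05). Cdc25c, a phosphatase that removes the inhibitory phosphates of Cdk1, had 24.7 and 22.3 in the IgG pair against 39.7 and 43.7 in the 4E-T pair and a difference of 0.80 ± 0.14 (limma adjusted p = 3.48e-05). The related phosphatase gene Cdc25b was not called, with 31.9 and 29.1 in the IgG pair against 31.7 and 33.3 in the 4E-T pair and a difference of 0.09 ± 0.14. Ccnb1 was called higher without 4E-T library 1 (limma adjusted p = 0.0334). Ccna2 was called lower with median ratio scaling (difference -0.56, limma adjusted p = 0.00787), quantile normalisation (difference -0.54, adjusted p = 0.00511), the length correction (difference -0.51, adjusted p = 0.00915), the replicate block (0.038) and with the minimum of 5 FPKM (0.0415).

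The chromosomal passenger complex, which corrects faulty attachments and later guides cytokinesis, showed 3 of its 4 genes higher, against 34.3% of all tested genes. The kinase gene Aurkb was at 64.5 and 60.1 in the IgG pair against 89.9 and 89.3 in the 4E-T pair, with a log2 difference of 0.52 ± 0.15 (limma adjusted p = 0.00497). Incenp, its scaffold, had 42.9 and 45.2 in the IgG pair against 74.6 and 60.1 in the 4E-T pair and a difference of 0.59 ± 0.15 (limma adjusted p = 0.00167), and Cdca8, encoding borealin, had 53.6 and 53.2 in the IgG pair against 72.9 and 69.3 in the 4E-T pair and a difference of 0.41 ± 0.15 (limma adjusted p = 0.0218). Birc5, which encodes survivin, the subunit that reads a histone mark at centromeres, had 23.8 and 24.3 in the IgG pair against 26.7 and 24.2 in the 4E-T pair and was not called (0.08 ± 0.14). Without IgG library 1 the calls of Aurkb (limma adjusted p = 0.052), Incenp (0.0625) and Cdca8 (0.127) were lost, and without IgG library 2 those of Aurkb (0.105) and Cdca8 (0.145). The Cdca8 call was also lost without 4E-T library 1 (0.0811), with median ratio scaling (0.134), quantile normalisation (0.186) and the length correction (0.0734). With quantile normalisation the differences of Aurkb and Incenp were 0.30 and 0.39, and with median ratio scaling that of Aurkb was 0.33.

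Spindle assembly genes held several of the largest increases, with 5 of 7 higher and a median log2 difference of 1.05. Of all tested genes 34.3% were higher, and their median was 0.16. Tpx2, encoding the activator of Aurora A on spindle microtubules (ENSMUSG00000027469.16; chromosome 2, 152847964 to 152895321), was at 52.4 and 48.1 in the IgG pair against 163 and 119 in the 4E-T pair. It rose 2.73-fold (log2 difference 1.45 ± 0.16; limma adjusted p = 5.70e-08), rank 40 of all tested genes. Aurka itself, the kinase that Tpx2 activates, had 46.5 and 51.5 in the IgG pair against 95.4 and 87.4 in the 4E-T pair and a difference of 0.88 ± 0.15 (limma adjusted p = 1.95e-05). Ckap5, a microtubule polymerase, had 34.6 and 31.4 in the IgG pair against 86.1 and 61.2 in the 4E-T pair and rose by 1.12 ± 0.16 (limma adjusted p = 3.07e-06). Aspm, a spindle pole protein whose loss causes microcephaly in humans, had 9.66 and 9.07 in the IgG pair against 22.4 and 18.6 in the 4E-T pair and rose by 1.05 ± 0.14 (limma adjusted p = 9.13e-07), or by 0.67 with the length correction. Numa1, which anchors dynein at spindle poles and the cell cortex, was at 22.7 and 22.6 in the IgG pair against 55.8 and 40.9 in the 4E-T pair and rose by 1.05 ± 0.15 (limma adjusted p = 2.71e-06). In Tpx2, Ckap5, Aspm and Numa1 the first 4E-T library was the higher of the pair, and in none did the antibodies overlap. Hmmr, a microtubule-associated protein gene, was not called (difference 0.18 ± 0.15), with 28.8 and 27.7 in the IgG pair against 37.7 and 27.4 in the 4E-T pair, so that only 4E-T library 1 stood above the rest. It was called without 4E-T library 2 (difference 0.41, limma adjusted p = 0.0432). Nusap1, a microtubule bundling protein gene that overlaps Oip5, was not called (45.3 and 40.1 in the IgG pair against 48.3 and 40.0 in the 4E-T pair, difference 0.04 ± 0.15).

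Each of the 4 cytokinesis genes was higher, where 34.3% of all tested genes were. Anln, encoding anillin, the scaffold of the contractile ring, was at 19.4 and 15.7 in the IgG pair against 51.3 and 40.7 in the 4E-T pair and rose 2.53-fold (log2 difference 1.34 ± 0.15; limma adjusted p = 6.29e-08). Prc1, the microtubule cross-linker of the central spindle, had 82.0 and 76.2 in the IgG pair against 153 and 134 in the 4E-T pair and a difference of 0.85 ± 0.15 (limma adjusted p = 5.62e-05). Racgap1, a subunit of centralspindlin, had 69.9 and 61.1 in the IgG pair against 124 and 101 in the 4E-T pair and a difference of 0.77 ± 0.16 (limma adjusted p = 0.000213). Ect2, the exchange factor that activates RhoA at the furrow, rose least, by 0.42 ± 0.14 (limma adjusted p = 0.0181). Ect2 lost its call on removal of IgG library 1 (limma adjusted p = 0.0658), of IgG library 2 (0.205) or of 4E-T library 1 (0.157), with no filter (0.0563), with median ratio scaling (0.119), with quantile normalisation (0.0915) and with the length correction (0.0993). Of the remaining genes, Mki67, whose Ki-67 protein coats mitotic chromosomes and is the usual marker of cycling cells, had 12.01 and 15.8 in the IgG pair against 37.1 and 33.8 in the 4E-T pair and rose 2.46-fold (log2 difference 1.30 ± 0.15; limma adjusted p = 6.24e-08). Plk4, the kinase that starts centriole duplication, had 28.7 and 25.3 in the IgG pair against 27.7 and 28.0 in the 4E-T pair and a difference of 0.05 ± 0.14. Cenpj, which despite its name encodes a centriole protein, had the low FPKM of 3.79 and 3.08 in the IgG pair against 4.38 and 3.40 in the 4E-T pair and a difference of 0.14 ± 0.14, and Cenpv differed by 0.17 ± 0.14. None of the last 3 was called.

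**Figure D3:**
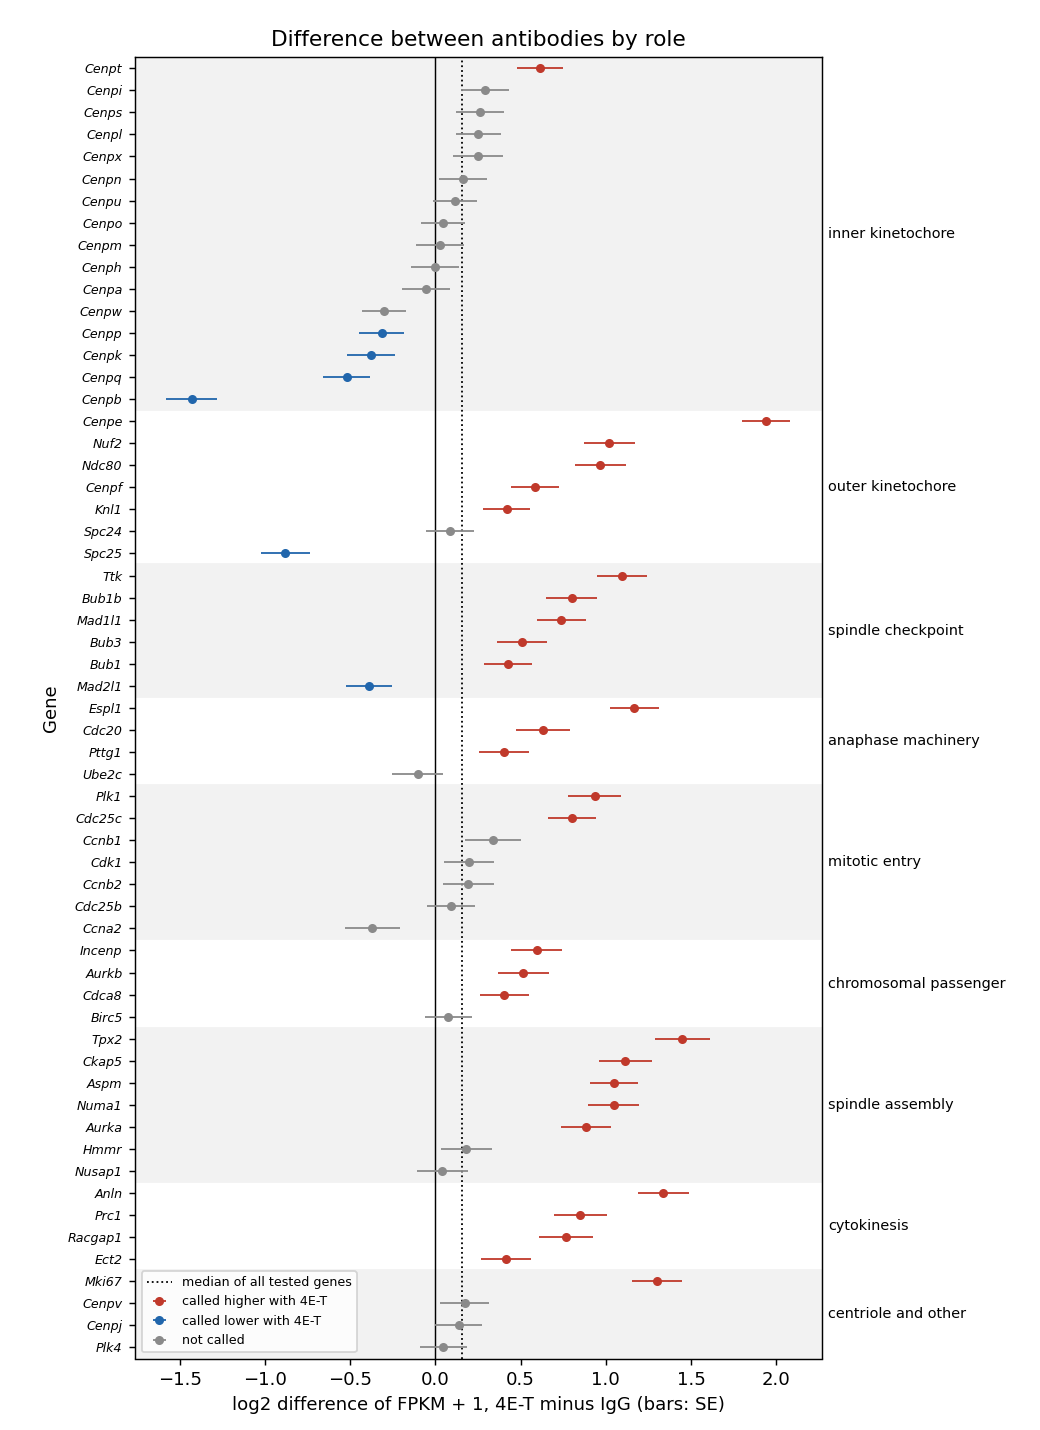
Log2 difference of FPKM + 1 (4E-T minus IgG) with its SE for the 59 mitotic genes by role, in red where called higher, blue where called lower and grey where not called. The dotted line marks the median of all tested genes, 0.16. Red points include 5 of the 7 spindle assembly genes and all 4 cytokinesis genes, where 34.3% of all tested genes were called higher. Of the 6 blue points 4 lie in the inner kinetochore.

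Set side by side by their labelled numbers, which were not shown to pair the libraries, the 2 experiments gave the same sign for 50 of the 59 genes, positive in 40 and negative in 10. That is 84.7%, near the 83.6% of all tested genes. They gave opposite signs for 9, all among the 24 that were not called. Among the 29 genes called higher, the difference in Exp1 exceeded that in Exp2 for 25. The same count over all genes called higher was not made, so the 25 cannot be read as particular to mitotic genes. The median difference over the set was 0.44 in Exp1 and 0.37 in Exp2, against 0.17 and 0.16 over all tested genes. In the authors' deposited table, 29 mitotic genes were higher and 5 lower at an adjusted p under 0.05, where 20% and 11.9% of the listed genes were. Those shares are over all 21738 listed genes, including the ones under the FPKM minimum that every mitotic gene passed. The 29 were the ones called higher here. Of the lower ones 4 were shared, Cenpw was called in the authors' deposited table alone, and Cenpk and Cenpp were called here alone.

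Genes with a longer recovered exon length had larger differences on the whole, among mitotic genes and among all genes. Exon length was recovered from the table together with the reads. It is the length that the FPKM were divided by, and need not be that of a transcript. For Mad2l1 (7557 bp) and Cenpb (4886 bp) it exceeds the whole RefSeq span of the gene. Spearman's rho of exon length with the log2 difference was 0.32 across the 59 mitotic genes and 0.24 across all 12585 tested genes, given as a description since genes share the libraries. The genes called higher had a median exon length of 3668 bp, those not called 3049.5 bp and those called lower 2068 bp. Of the 9 mitotic genes of at least 5000 bp 8 were higher, where 47.5% of all tested genes of that length were. Of the 50 shorter ones 21 were higher, or 42.0%, against 30.8% of all shorter tested genes. Genes of similar length also differed in direction. Mad2l1 (7557 bp) fell and Cenpe (7910 bp) rose, but the Mad2l1 value exceeds its RefSeq span, so the 2 transcripts may differ more in length. Aurka (1905 bp), Plk1 (2199 bp) and Ndc80 (2201 bp) rose, while Spc25 (1869 bp), Cenpq (1942 bp) and Cenpk (2077 bp), fell. After a correction of each library for a trend on exon length, 26 mitotic genes were higher and 8 lower, the median log2 difference was 0.22, and Cenpe remained the largest increase at 1.61.

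**Figure D4:**
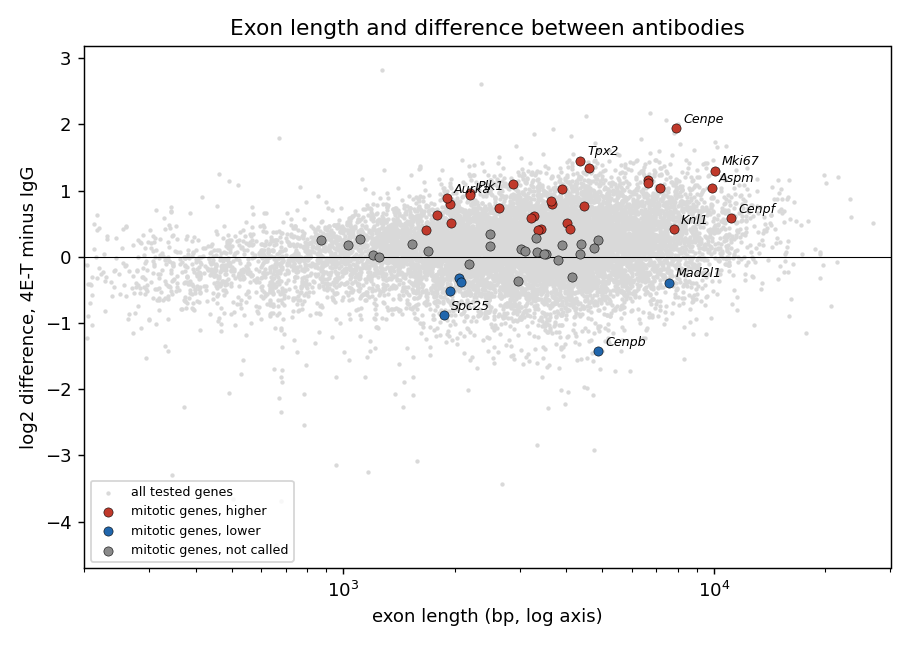
Log2 difference (4E-T minus IgG) against exon length in bp (log axis) for all tested genes (light grey) and the 59 mitotic genes (red called higher, blue called lower, dark grey not called). The 8 red points of at least 5000 bp include Cenpe, Mki67 and Aspm. Mad2l1, whose recovered length exceeds its RefSeq span, is the blue point among them.

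Promoter sequence was examined because late cell cycle genes are known to share 2 elements, the cell cycle genes homology region (CHR), bound by the MuvB complex, and the CCAAT box, bound by NF-Y. RefSeq promoter windows (GRCm38.p6, 250 bases before to 50 after a start) were found for 53 of the mitotic genes, but not for Incenp, Aurkb, Ccna2, Tpx2, Spc24 and Cdc25c. The windows were searched on both strands for TTTGAA or TTCGAA (CHR) and for CCAAT (a base could count towards both motifs). A match is only a match of letters. A CHR was found for 30 of 53 mitotic genes, or 56.6%, against 15.8% of the 9077 tested genes with a window, and 19.2% of all 32851 RefSeq windows held one. A CCAAT was found for 66% of mitotic genes, 43.9% of tested genes and 37.4% of all windows. The stretches below, all outside the annotated span of their gene, show how the motifs lie in genes of each call. They leave out the 50 bases after the start. There or across the start lie the only CHR matches of Plk1, Aurka, Ttk, Bub1, Ndc80 and Spc25, among others. Both motifs are in capitals, read in the orientation of the gene, so that a CHR on the opposite strand reads TTCAAA and a CCAAT reads ATTGG. The genes were chosen with their calls known. The first 4 belong to genes called higher (Mki67, chr7:135716451-135716529 (minus strand); Cdc20, chr4:118437344-118437493 (minus strand); Bub3, chr7:131560220-131560366 (plus strand); Ckap5, chr2:91526612-91526746 (plus strand)). The next 2 belong to abundant genes that were not called (Cdk1, chr10:69352913-69353062 (minus strand); Ube2c, chr2:164769779-164769928 (plus strand)), and the last 2 to genes called lower (Cenpq, chr17:40934575-40934724 (minus strand); Cenpb, chr2:131180068-131180217 (minus strand)).
Mki67: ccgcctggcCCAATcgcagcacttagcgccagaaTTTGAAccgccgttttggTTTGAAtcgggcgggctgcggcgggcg
Cdc20: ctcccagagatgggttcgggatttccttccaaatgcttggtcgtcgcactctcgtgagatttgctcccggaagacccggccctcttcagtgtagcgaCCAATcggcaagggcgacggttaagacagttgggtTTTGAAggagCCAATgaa
Bub3: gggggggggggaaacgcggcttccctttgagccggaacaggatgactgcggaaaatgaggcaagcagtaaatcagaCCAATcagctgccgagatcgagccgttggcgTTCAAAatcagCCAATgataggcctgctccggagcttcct
Ckap5: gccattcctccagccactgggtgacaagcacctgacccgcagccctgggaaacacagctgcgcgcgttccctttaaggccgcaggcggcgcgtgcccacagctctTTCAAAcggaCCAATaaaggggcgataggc
Cdk1: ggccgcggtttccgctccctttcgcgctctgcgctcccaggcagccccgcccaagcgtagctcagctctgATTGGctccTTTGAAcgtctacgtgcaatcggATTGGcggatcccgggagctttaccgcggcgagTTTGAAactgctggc
Ube2c: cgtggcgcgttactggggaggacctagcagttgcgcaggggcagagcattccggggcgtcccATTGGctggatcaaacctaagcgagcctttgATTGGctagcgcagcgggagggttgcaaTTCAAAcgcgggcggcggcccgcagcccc
Cenpq: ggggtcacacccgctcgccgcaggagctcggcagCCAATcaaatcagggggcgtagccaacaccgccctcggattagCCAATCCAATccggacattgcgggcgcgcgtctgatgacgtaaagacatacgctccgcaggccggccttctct
Cenpb: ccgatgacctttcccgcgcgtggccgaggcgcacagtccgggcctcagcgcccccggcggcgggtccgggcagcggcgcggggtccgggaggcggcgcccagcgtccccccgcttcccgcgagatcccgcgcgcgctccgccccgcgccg

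The Mki67 and Cdk1 stretches each hold 2 CHR matches, and those of Cdc20, Bub3, Ckap5 and Ube2c hold 1. The Cenpq stretch holds 3 CCAAT and no CHR, and that of Cenpb, which is rich in G and C, neither. Of the 30 mitotic genes with a CHR in the window 19 were called higher and 1, Spc25, lower. Of the 23 without one 6 were called higher and 5 lower. The median log2 difference was 0.47 with a CHR and 0.14 without. Over all tested genes the motif made no such separation: 36.9% were called higher both with and without it, with medians of 0.18 and 0.19. Cenpe, the gene with the largest increase, had a CCAAT but no CHR in its window, and Cdk1 and Ube2c had CHR matches and were not called. The motifs were chosen with the calls known, so the split among mitotic genes is a description.

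**Figure D5:**
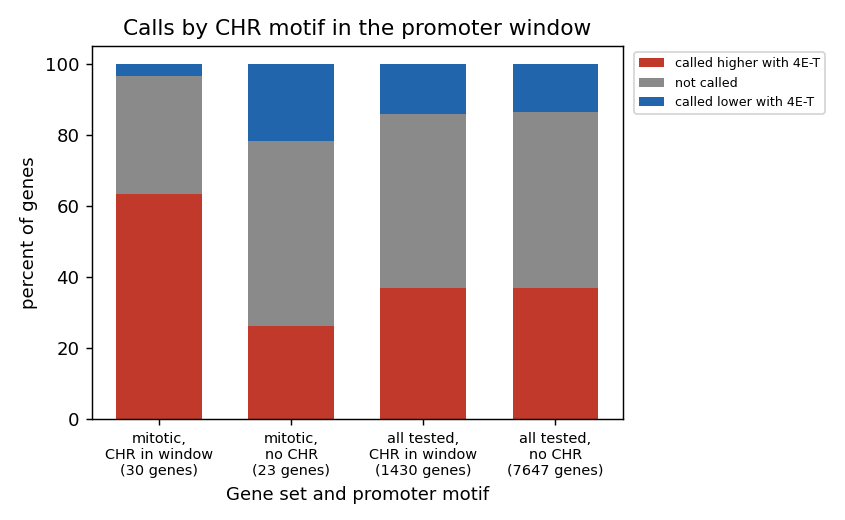
Percent of genes called higher (red), not called (grey) and called lower (blue) with 4E-T, for mitotic genes and all tested genes with and without a CHR match in the promoter window. The red share is 63.3% and 26.1% for mitotic genes with and without the motif, and 36.9% in both bars of all tested genes.

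Genes of the same pathways that the set leaves out were read against the 34.3% higher and 15.2% lower of all tested genes. Of 25 further kinetochore assembly genes 10 were higher and 3 lower, or 40% and 12%, shares near those of all tested genes, with a median log2 difference of 0.18. Kntc1, encoding a subunit of the complex that brings dynein to kinetochores, rose by 1.28 ± 0.14 (limma adjusted p = 5.83e-08) and the kinesin gene Kif18a by 1.20 ± 0.15 (limma adjusted p = 1.77e-07). Zwint, an abundant partner of that complex, fell, at 186 and 190.4 in the IgG pair against 134 and 115 in the 4E-T pair, a difference of -0.59 ± 0.16 (limma adjusted p = 0.00303), and Ska2, of the microtubule-tracking SKA complex, differed by -0.55 ± 0.15 (limma adjusted p = 0.00327). Both decreases lost their call without IgG library 1 (limma adjusted p = 0.0637 and 0.151, Ska2 difference -0.33), and Zwint also without IgG library 2 (0.0835). Of 17 genes of the anaphase-promoting complex and its regulators 8 were higher and 2 lower, or 47.1% and 11.8%. Its cullin subunit gene Anapc2 rose by 1.09 ± 0.15 (limma adjusted p = 1.59e-06) and Anapc4 by 0.80 ± 0.15, whereas Anapc10, the processivity subunit, fell, at 5.88 and 5.88 in the IgG pair against 2.26 and 2.04 in the 4E-T pair, a difference of -1.13 ± 0.13 (limma adjusted p = 8.78e-08). Anapc16 differed by -0.42 ± 0.14 (limma adjusted p = 0.0142), lost on removal of IgG library 1 (0.0659), of IgG library 2 (0.112) or of 4E-T library 2 (0.119).

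Of 26 spindle and augmin genes 15 rose and 2 fell, or 57.7% and 7.69%, with a median log2 difference of 0.52. Kifc1, a minus-end kinesin with the near-identical copy Kifc5b, was at 5.25 and 3.56 in the IgG pair against 33.9 and 29.4 in the 4E-T pair and rose by 2.61 ± 0.15 (limma adjusted p = 3.31e-12), and the spindle kinesin gene Kif15 rose by 1.61 ± 0.16 (limma adjusted p = 8.03e-08). Haus2, a subunit of augmin, which nucleates microtubules from existing ones, had 79.8 and 64.5 in the IgG pair against 26.3 and 24.1 in the 4E-T pair and fell, with a difference of -1.47 ± 0.15 (limma adjusted p = 7.78e-09). Of the other augmin genes Haus4 and Haus5 were higher (0.50 and 0.60) and 5 were not called. Knstrn differed by -0.43 ± 0.14 (limma adjusted p = 0.014), which was lost on removal of IgG library 1 (0.169), of IgG library 2 (0.0522) or of 4E-T library 1 (0.052). Of 15 further cytokinesis genes tested 9 rose and 1 fell, or 60% and 6.67%, with a median of 0.57. The kinase gene Cit rose by 1.35 ± 0.14 (limma adjusted p = 1.30e-08) and the central spindle kinesin gene Kif20a by 1.35 ± 0.15 (limma adjusted p = 6.02e-08). Arhgap11a, which encodes a GTPase-activating protein for RhoA, fell, at 46.9 and 43.5 in the IgG pair against 29.1 and 25.98 in the 4E-T pair, a difference of -0.70 ± 0.14 (limma adjusted p = 0.0002).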

How the data were processed

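Per the labels' protocols, RNA was purified by immunoprecipitation with a Magna RIP kit, made into cDNA with SMART-Seq v4 and into libraries with Nextera XT, which does not mark strand. Per the submitters' processing notes, reads were handled with STAR 2.6.0c, HTSeq 0.6.1p2 and DESeq2 1.26.0 on mm10, and the notes also name Trim Galore 0.5.0 and FastQC 0.11.5. The authors deposited 1 table with an FPKM value per gene and library. Beside it the authors deposited a mean normalised signal, a log2 fold change, a linear fold (ratio), a test score, and a p-value and adjusted p-value per gene. No input RNA was analysed here. FPKM are relative levels, scaled by a size factor per library and not by its total of reads.

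Reads and exon lengths were recovered from FPKM and the mean normalised signal. All 86952 values (100%) came out whole within 0.01 read, and the libraries held 85828188 and 77919577 reads with IgG and 85451469 and 72769612 with 4E-T. The main test was limma 3.58.1 (R 4.3.3) on log2(FPKM + 1), with trend and robust settings, over genes with at least 1 FPKM in at least 2 libraries, adjusted by Benjamini-Hochberg over all 12585 genes with a threshold of 0.05. Differences on this scale understate the change of low genes, and ± is the SE. The variance of a gene rested on 2 residual degrees of freedom and a median of 27.0 borrowed from all tested genes. The size of an adjusted p therefore depends on which genes were tested. For a single gene too, an exact permutation test of 2 against 2 libraries cannot go below p = 0.333. The script was tested on simulated data. The 12 alternatives were another pseudocount, 2 filters, 2 scalings, a replicate block, a length correction, voom on the recovered reads and each library left out. The mitotic genes, the other lists and the motifs were chosen with earlier results of these data known. By rule, values per library are given for the called genes of each role with the largest differences (up to 3 higher and 2 lower) and for Mki67, Cdk1, Cenpa, Bub1 and Bub1b, and the other mitotic genes with such values were added with their results known. Of each further list up to 2 called genes per direction are named by size, and Haus4 and Haus5 were named after their values were seen.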

Additional observations from a re-analysis of the deposited data

How the results depend on the processing

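Of the 29 increases 19 and of the 6 decreases 2 (Cenpb and Spc25) kept their call in all 12 alternatives, and all 35 kept their direction wherever tested (Cenpp was not tested with the minimum of 5 FPKM). The median log2 difference of the mitotic genes was 0.34, and moved to 0.15 with median ratio scaling, 0.19 with quantile normalisation and 0.22 with the length correction, where the median log2 difference of all tested genes was -0.00246, 0.03 and 0.03 in place of 0.16. It ranged from 0.34 to 0.41 with 1 library left out. Leaving out 1 library gave 20 to 30 increases and 2 to 5 decreases among the mitotic genes, and 2389 to 4259 increases and 1101 to 1755 decreases among all tested genes, against 4318 and 1912 with all libraries. All genes counted 2870 increases and 2969 decreases with median ratio scaling. A lone library was assumed to vary like the pair of the other antibody. The paired fit with a replicate block gave 30 increases and 8 decreases of mitotic genes and 4745 and 2099 of all genes. The deviations of same-numbered libraries correlated at 0.0637 over 2 pairs, so the numbers were not taken to pair the libraries. Recovered reads with voom gave 29 increases and 7 decreases. Library sizes for voom were taken from the scaling of the FPKM, so this fit is no check on that scaling.

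Directions turned only among genes that were not called. With median ratio scaling the differences became -0.00089 for Hmmr, -0.010 for Cenpv, -0.015 for Cenpn, -0.0089 for Cenpj, -0.018 for Cenpu, -0.091 for Cdc25b, -0.097 for Spc24, -0.10 for Birc5, -0.13 for Plk4, -0.094 for Cenpo, -0.14 for Nusap1 and -0.16 for Cenpm. With quantile normalisation they became -0.013 for Cdk1, -0.016 for Ccnb2, -0.0021 for Cenpv, -0.026 for Cenpn, -0.074 for Cdc25b, -0.095 for Spc24, -0.12 for Birc5, -0.13 for Plk4, -0.029 for Cenpo, -0.16 for Nusap1 and -0.15 for Cenpm. With the length correction they became -0.072 for Cenpj, -0.026 for Cenpu, -0.055 for Cdc25b, -0.00093 for Spc24, -0.076 for Birc5, -0.11 for Plk4, -0.15 for Cenpo and -0.12 for Nusap1. With 1 library left out, Cenpm ranged from -0.047 to 0.10, Cenph from -0.096 to 0.091, Plk4 from -0.041 to 0.14, Cenpo from -0.018 to 0.11, Nusap1 from -0.091 to 0.17, Hmmr from -0.043 to 0.41 and Cenpj from -0.0058 to 0.28. The cause of these changes was not tested.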

Other observations

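Other regulators of entry into and exit from mitosis numbered 24, of which 12 rose and 4 fell, or 50% and 16.7%, against 34.3% and 15.2% of all tested genes, with a median log2 difference of 0.30. Haspin, the histone kinase that recruits the chromosomal passenger complex, was at 9.09 and 8.89 in the IgG pair against 21.95 and 19.0 in the 4E-T pair and rose by 1.10 ± 0.14 (limma adjusted p = 3.45e-07). Ppp2r1a, the scaffold subunit of the phosphatase PP2A, had 194 and 182 in the IgG pair against 407 and 338 in the 4E-T pair and rose by 0.98 ± 0.17 (limma adjusted p = 3.00e-05). Arpp19, which encodes a small inhibitor of PP2A in mitosis, fell, at 46.6 and 39.9 in the IgG pair against 18.0 and 18.6 in the 4E-T pair and a difference of -1.19 ± 0.14 (limma adjusted p = 1.32e-07). Cks2, a small Cdk-binding protein gene, had 122 and 115 in the IgG pair against 64.5 and 77.5 in the 4E-T pair and a difference of -0.73 ± 0.15 (limma adjusted p = 0.000293).

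A list on late cell cycle transcription held 15 genes. Besides those of MuvB, B-Myb and FoxM1, it included Rbl1, Rbl2, E2f4, E2f5, Tfdp1, Nfya, Nfyb and Nfyc, and it was not split by complex. Of the 15 genes 2 rose and 1 fell, or 13.3% and 6.67%, both under the 34.3% and 15.2% of all tested genes. The median log2 difference was -0.07, against 0.16 for all tested genes. Lin37, a MuvB subunit gene, rose by 0.75 ± 0.14 (limma adjusted p = 6.98e-05). Mybl2, encoding B-Myb, was at 13.6 and 12.8 in the IgG pair against 19.3 and 18.0 in the 4E-T pair, with a difference of 0.47 ± 0.14 (limma adjusted p = 0.00585), lost without IgG library 2 (0.0704) and with quantile normalisation (0.0504). The difference was 0.29 with median ratio scaling and 0.31 with the length correction. Lin52, the other MuvB subunit gene called, fell, with a difference of -0.57 ± 0.14 (limma adjusted p = 0.00112). Over the 6 further lists together, 56 of 122 genes were higher (45.9%) and 13 lower (10.7%), against the same 34.3% and 15.2%.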
